A study of Mus musculus with 6 samples.

Results

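Mag, Ncmap, Drp2, Cnp and Ndrg1 encode proteins of noncompact myelin, the parts of the myelin sheath that keep cytoplasm between their membranes. These 5 genes were followed in the sciatic nerve of 2-day-old mouse pups, at the onset of myelination by Schwann cells. They were found by name among 18194 genes on Affymetrix Mouse Genome 430 2.0 arrays, as every probe set (a group of short probes for 1 transcript) annotated with exactly 1 gene symbol equal to a member. This gave 13 probe sets, and the brightest set of each gene over the 6 arrays stood for the gene. The mutant pups carried DhhCre, in which desert hedgehog sequences direct the Cre recombinase to the Schwann cell lineage, and lacked Hdac1 and Hdac2 there (labelled DhhCre+ HDAC1-2 dKO, here dKO, 3 samples). The control littermates were labelled DhhCre–, without stating which Hdac alleles they carried (3 samples). All pups were of mixed strain, and the perineurium had been stripped from every nerve. The labels do not say how many pups went into 1 sample, so p-values reflect only how far these samples spread, which may be technical. The comparison addresses how loss of these 2 histone deacetylases in Schwann cells bears on genes of the cytoplasmic channels of myelin.

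A myelinating Schwann cell wraps its membrane around 1 stretch of axon and presses most of the turns into compact myelin. Cytoplasm remains next to the axon, along the outer surface, in the loops beside the node, and in the Schmidt-Lanterman incisures, funnel-shaped channels that cross the compact layers. Mag is an adhesion protein of the membrane that faces the axon and of the incisures, Ncmap is a small transmembrane protein of noncompact myelin, and Drp2 binds dystroglycan at the outer surface. Cnp is an enzyme and cytoskeletal protein of the cytoplasmic channels, and Ndrg1 is a cytoplasmic protein whose mutation causes a demyelinating hereditary neuropathy.

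The 250 bases before the gene start are shown for the 3 members with an entry in the RefSeq promoter table of build GRCm38.p6. Capitals mark matches, on either strand, to ACAAAG, a core of sites for Sox factors such as Sox10, and GGAATG, a core of sites for TEAD factors. Another motif, GCGTGGG for Egr factors such as Egr2, was also searched. The matches do not overlap.
Mag, chr7:30914923-30915172, minus strand: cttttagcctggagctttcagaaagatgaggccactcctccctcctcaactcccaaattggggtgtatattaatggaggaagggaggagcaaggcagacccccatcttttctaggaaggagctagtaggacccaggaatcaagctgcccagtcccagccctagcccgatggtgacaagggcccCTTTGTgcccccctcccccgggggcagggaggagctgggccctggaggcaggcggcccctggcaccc
Ncmap, chr4:135398228-135398477, minus strand: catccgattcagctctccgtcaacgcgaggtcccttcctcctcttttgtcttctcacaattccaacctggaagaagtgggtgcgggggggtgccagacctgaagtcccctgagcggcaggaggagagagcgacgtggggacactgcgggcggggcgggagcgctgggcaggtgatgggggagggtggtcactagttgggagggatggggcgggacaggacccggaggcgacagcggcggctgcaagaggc
Cnp, chr11:100574689-100574938, plus strand: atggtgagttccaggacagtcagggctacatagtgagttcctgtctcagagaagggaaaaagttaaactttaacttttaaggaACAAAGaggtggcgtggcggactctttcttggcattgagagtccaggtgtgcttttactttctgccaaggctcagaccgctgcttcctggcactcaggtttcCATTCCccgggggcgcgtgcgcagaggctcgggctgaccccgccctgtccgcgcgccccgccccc
Mag held 1 match to the Sox core, on the opposite strand, from base -67 to -62 before the gene start. Cnp held 1 Sox match from -167 to -162, on its own strand, and 1 TEAD match from -65 to -60 on the opposite strand. Ncmap held none of the 3 motifs, and no member held the Egr motif in this window. Of 32851 windows of this length in the table, 16.5% held the Sox core, 12.6% the TEAD core and 4.30% the Egr core, so such matches are common. The windows had a GC content of 61.2% (Mag), 66.0% (Ncmap) and 57.2% (Cnp), against a median of 52.4% over all windows. Mag and Ncmap have further entries in that table, and the window farthest upstream was used.

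Values below are log2 expression, given as mean ± SD (n = 3 per group), and a change is the dKO mean less the control mean, with a standard error (SE). Adjusted p-values of genes come from limma, are two-sided and are adjusted over the 14550 genes tested. All 5 members were lower in dKO nerves at an adjusted p under 0.05, as were 9.38% of all genes tested, while 12.6% were called higher. Mag, Ncmap and Drp2 fell to between 4.04% and 7.36% of the control level, whereas Cnp and Ndrg1 kept 48.9% and 52.7% on their brightest probe sets. For each member all 3 dKO arrays lay under all 3 control arrays, which held for 18.4% of all genes. The median change of the members was -3.76, against 0.0063 over all genes tested. No member was under the low-value limit of 4 on any array. Every cell type of the nerve contributed RNA, and fewer myelinating Schwann cells cannot be told apart from less RNA per cell.

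**Figure D1:**
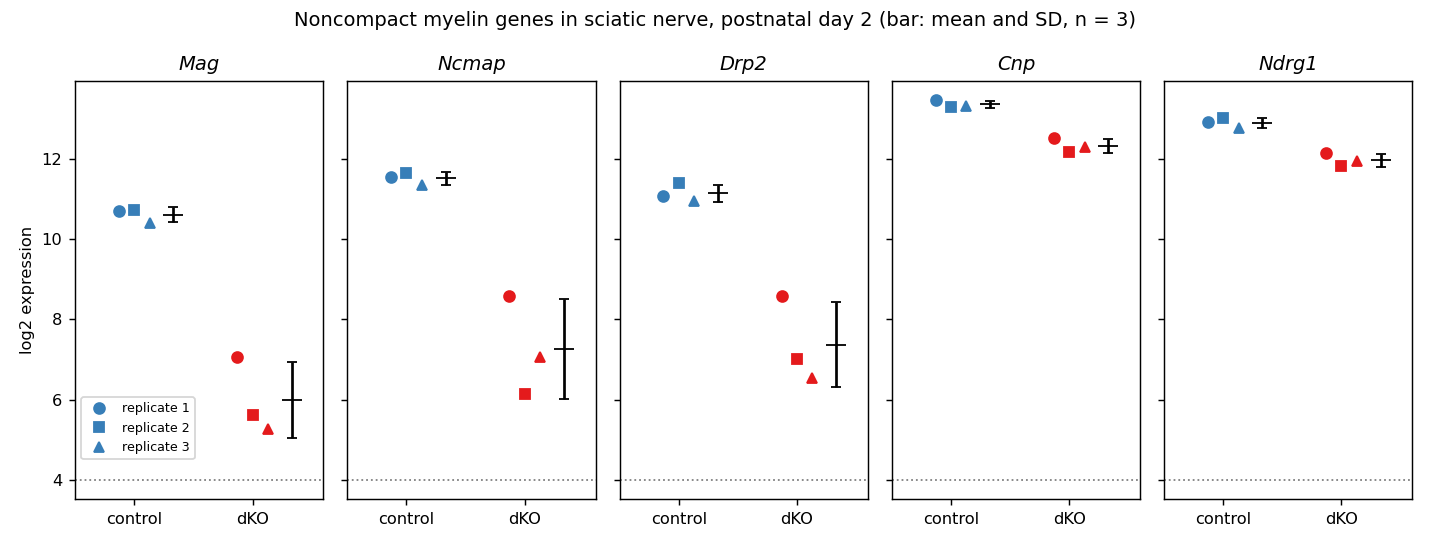
Log2 expression of each member on its brightest probe set (y axis) in control and dKO nerves (x axis). Symbols are single arrays by replicate number, bars are mean and SD (n = 3), and the dotted line is the low-value limit of 4. In every panel the 3 dKO arrays lie under the 3 control arrays, and for Mag, Ncmap and Drp2 the dKO 1 array is the highest of the dKO arrays. Levels of different genes cannot be set against each other.

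Mag, the myelin-associated glycoprotein that binds partners on the axon surface, read 10.70, 10.74 and 10.40 on control arrays 1 to 3. On dKO arrays 1 to 3 it read 7.06, 5.62 and 5.27. The control arrays were close together, and the dKO arrays were spread over a range several times as wide. The change was -4.63 (SE 0.41, adjusted p = 0.000285), or 4.04% of the level in control (95% interval 2.11% to 7.73%). It was the change with rank 2 from the bottom among the 14550 genes. Only 8 genes (0.0550%) were called lower with a fall of at least 4 on the log2 scale, and Mag and Ncmap were among them.

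Ncmap read 11.55, 11.66 and 11.34 on the control arrays and 8.59, 6.13 and 7.07 on dKO arrays 1 to 3. Its lowest dKO value was in dKO 2, whereas Mag and Drp2 were lowest in dKO 3. The change was -4.25 (SE 0.52, adjusted p = 0.00100), or 5.24% of the level in control (95% interval 2.30% to 12.0%). Mag and Ncmap each have 1 probe set, so no other probe set checks these values.

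Drp2, a dystrophin-related protein that joins periaxin and dystroglycan at the outer Schwann cell membrane, read 11.07, 11.39 and 10.96 on the control arrays. On dKO arrays 1 to 3 it read 8.58, 7.01 and 6.54. The groups were separated by more than 2 log2 units. The change was -3.76 (SE 0.46, adjusted p = 0.000993), or 7.36% of the level in control (95% interval 3.56% to 15.2%). Its other 2 probe sets changed by -3.62 and -3.77, so all 3 gave nearly the same size.

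Cnp, the 2',3'-cyclic nucleotide phosphodiesterase of myelinating glia, read 13.47, 13.30 and 13.32 on the control arrays and 12.52, 12.18 and 12.29 on dKO arrays 1 to 3. The change on this brightest set was -1.03 (SE 0.15, adjusted p = 0.00197), or 48.9% of the level in control (95% interval 38.7% to 61.7%). Its other 2 probe sets fell further. One went from 12.33, 12.43 and 12.43 in control to 10.65, 10.74 and 9.58 in dKO, a change of -2.07 that left 23.8%. The other went from 10.87, 11.01 and 10.92 to 9.17, 8.93 and 8.30, a change of -2.14 that left 22.8%. On both of these sets dKO 3 was the lowest array, whereas on the brightest set it was dKO 2.

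Ndrg1 read 12.91, 13.01 and 12.77 on the control arrays and 12.14, 11.82 and 11.96 on dKO arrays 1 to 3. The change on this brightest set was -0.92 (SE 0.15, adjusted p = 0.00340), or 52.7% of the level in control (95% interval 41.7% to 66.7%). The other 4 probe sets changed by -1.31, -1.76, -1.85 and -1.79, and left 40.4%, 29.4%, 27.7% and 28.9% of the control level. On the second brightest set control arrays read 12.25, 12.44 and 12.23 and dKO arrays 11.14, 11.01 and 10.85. Every Ndrg1 probe set thus read lower in dKO, and the brightest showed the smallest fall.

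All 13 probe sets of the members were called lower when adjusted over the 33975 probe sets above the limit, of which 7.40% were called lower. The brightest sets of Cnp and Ndrg1 have IDs that end in _x_at, the manufacturer's mark for sets in which some probes can also match other transcripts. The part of such matches in the smaller falls on these sets was not tested. The fall on the Cnp set was 1.07 smaller (SE 0.31) than the mean fall of its other 2 sets. On the Ndrg1 set it was 0.76 smaller (SE 0.21) than the mean of its other 4. For each, the exact two-sided permutation test over the 6 arrays gave p = 0.1 (n = 3 per group), below which 3 against 3 arrays cannot go. For Drp2 the brightest set differed from the mean of its others by -0.07 (SE 0.29, exact permutation p = 0.9). With all probe sets averaged, the change was -1.75 for Cnp and -1.53 for Ndrg1. With sets ending in _x_at left out, an alternative chosen after seeing the data, it was -2.07 and -1.31. With the set of the largest spread it was -2.07 and -1.85. Both genes were called lower in each case, and the size of their fall rests on the choice of probe set.

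**Figure D2:**
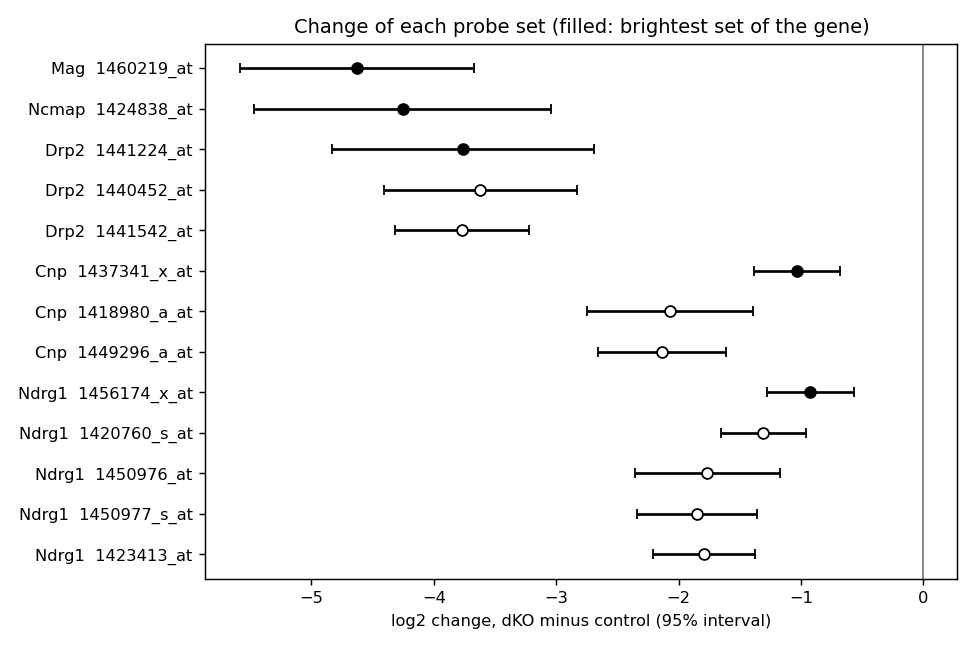
Log2 change, dKO minus control (x axis), of each of the 13 probe sets of the members (y axis, gene and probe set ID). Points are the fitted changes and bars their 95% intervals, with the brightest set of each gene filled. All intervals lie under 0, and the brightest sets of Cnp (-1.03) and Ndrg1 (-0.92) lie closer to 0 than the other sets of these genes.

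The size of the fall was compared between members in all 10 pairs, as the log2 value of 1 gene minus the other on each array. Mag, Ncmap and Drp2 fell further than Cnp and Ndrg1 in all 6 such pairs, with differences of change from -2.73 (Drp2 minus Cnp, SE 0.56) to -3.71 (Mag minus Ndrg1, SE 0.48). In each of these pairs the 3 dKO arrays did not overlap with the 3 control arrays, and p was 0.1 by an exact permutation test, two-sided (n = 3 per group, adjusted p = 0.143 over the 10 pairs). The design can give no smaller p, so no pair can pass 0.05. With all probe sets averaged, the same 6 differences were smaller, from -1.97 to -3.10. Mag differed from Drp2 by -0.87 (SE 0.11), with p = 0.1 in the same exact permutation test. The other 3 pairs gave an exact permutation p of 0.4. Mag differed from Ncmap by -0.38 (SE 0.39), Ncmap from Drp2 by -0.49 (SE 0.42), and Cnp from Ndrg1 by -0.11 (SE 0.09). That last difference was -0.77 when sets ending in _x_at were left out.

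On the brightest sets Mag, Ncmap and Drp2 spread most among dKO nerves. Their SD over dKO arrays was 0.95 (Mag), 1.24 (Ncmap) and 1.07 (Drp2), against a median of 0.20 over all genes, while their control SDs of 0.16 to 0.22 were close to the median control SD of 0.18. The dKO SDs of Cnp and Ndrg1 were 0.17 and 0.16 on their brightest sets. Their other sets reached 0.64 (Cnp) and 0.53 (Ndrg1), above the 0.45 of the Drp2 set 1441542_at, so the contrast in spread rests on the choice of probe set. The array dKO 1 kept the highest level of every member on the brightest sets, whereas dKO 2 was the highest dKO array on 1 other set of Cnp and 3 other sets of Ndrg1. Averaged over the 5 members on the brightest sets, the level relative to the control mean was -2.13 in dKO 1, -3.36 in dKO 2 and -3.28 in dKO 3. The mean of the 5 compact myelin genes measured here followed the same order, at -1.70, -3.08 and -2.75. Without dKO 1 the changes were -5.17 for Mag, -4.91 for Ncmap, -4.37 for Drp2, -1.13 for Cnp and -1.01 for Ndrg1.

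The targeted genes were lower in every dKO array. Hdac1 fell from 10.36 to 10.48 on the control arrays to 8.75, 8.97 and 8.85 on dKO arrays 1 to 3 (adjusted p = 0.000271), with its lowest level in dKO 1. Hdac2 fell from 12.33 to 12.34 on the control arrays to 11.22, 10.81 and 11.19 (log2 change -1.26, adjusted p = 0.00103), the array order of the members' mean. With its probe sets averaged Hdac2 changed by -0.71 (adjusted p = 0.00431), and 1 of its 3 sets by 0.13 without passing. The part of these levels in the spread between dKO arrays was not tested. The X-inactivation transcript Xist, which marks female cells, differed between the dKO arrays. It read 4.69 in dKO 1 but 11.67 and 11.24 in dKO 2 and dKO 3, and among controls it was high only in control 2 (11.55). Drp2 is itself X-linked. With the Xist level as a covariate the changes were -4.41 for Mag, -3.97 for Ncmap, -3.54 for Drp2, -0.97 for Cnp and -0.91 for Ndrg1, and all 5 were still called lower.

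**Figure D3:**
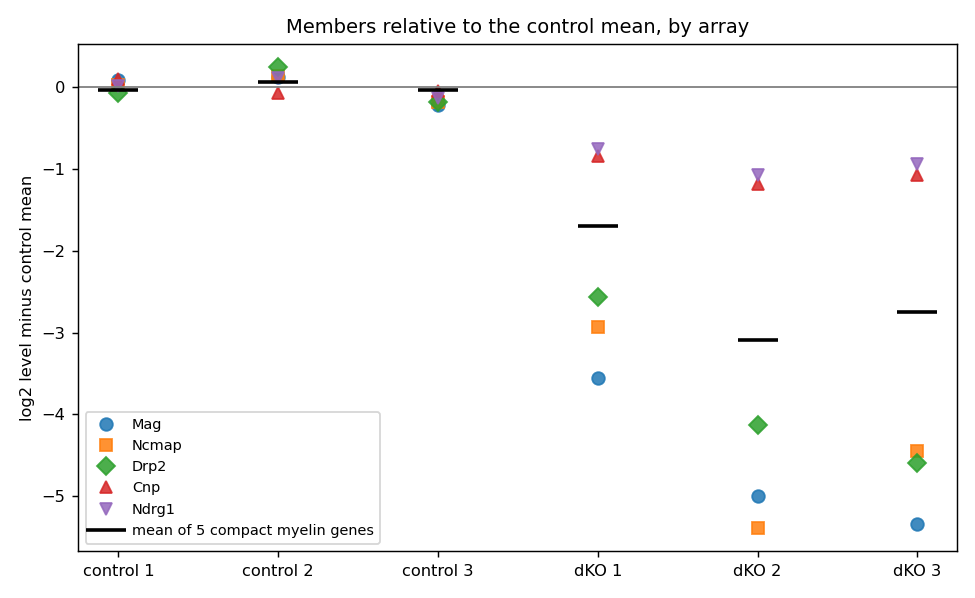
Log2 level minus the control mean (y axis) of each member on its brightest probe set, for each of the 6 arrays (x axis). The black bars are the mean of the 5 compact myelin genes measured here. Mag, Ncmap and Drp2 lie at -5.39 to -2.56 on the dKO arrays, Cnp and Ndrg1 at -1.18 to -0.76, and dKO 1 shows the smallest fall of each.

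Genes of compact myelin, the pressed layers between the channels, fell in the same size range. The 5 genes of this list measured here were all called lower, with a median change of -1.67. The lipid-binding protein gene Pmp2 read 12.37 to 12.67 in control and 9.64, 7.55 and 8.31 on dKO arrays 1 to 3. Its change was -3.97 (SE 0.45, adjusted p = 0.000745). Pllp, which encodes plasmolipin, changed by -4.33 (SE 0.53), while Pmp22, Mbp and Mal changed by -1.67, -1.37 and -1.20. The 8 probe sets of Mbp changed by -1.07 to -2.90. With the probe set of the largest spread for each gene, the median of the list was -2.90.

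Of 12 tested genes of the dystrophin and dystroglycan complex, the partners of Drp2 at the outer membrane, 4 were called lower and 0 higher, with a median change of -0.33. At an unadjusted p under 0.05 limma gave 2 of these genes higher. The dystrophin gene Dmd changed by -1.64 (SE 0.36, adjusted p = 0.0141), and its dKO arrays read 11.61, 10.96 and 9.97 against 12.30 to 12.64 in control. Its relative Utrn, which encodes utrophin, changed by -1.55 (SE 0.26, adjusted p = 0.00436), with dKO arrays at 12.70, 11.95 and 11.61 against 13.49 to 13.73. For Dmd and Utrn, as for Mag and Drp2, dKO 1 was the highest and dKO 3 the lowest of the dKO arrays. Dag1, which encodes dystroglycan, changed by -0.64 (adjusted p = 0.0194), a call lost when control 1, control 2 or dKO 2 was left out (adjusted p at most 0.0703) and with the Xist covariate (adjusted p = 0.0568). Ezr, which encodes the membrane linker ezrin, changed by -1.10 (adjusted p = 0.00702), and by -0.69 with its probe sets averaged. The dystrobrevin, sarcoglycan and syntrophin genes tested did not pass, with changes from -0.65 (Dtna) to 0.65 (Sntb2). Both ends of that range passed without dKO 3 (adjusted p = 0.0455 and 0.00648) and with array weights. Dtna also passed without control 3, with probe sets averaged or with arrays centred on the median, and Sntb2 with a low-value limit of 6. Periaxin (Prx) was not analysed here. With the probe set of the largest spread the median of the list was -0.76.

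Of 8 tested genes for adhesion to the axon and the scaffold of incisures, 5 were called lower and 1 higher, with a median change of -0.76. Cadm3, an adhesion molecule of the Necl family, read 8.66, 8.32 and 8.36 on the dKO arrays against 9.57 to 10.47 in control, a change of -1.64 (SE 0.24, adjusted p = 0.00204). Epb41l2, which encodes the cytoskeletal linker 4.1G of incisures, changed by -1.10 (SE 0.20, adjusted p = 0.00543). Lin7c, a scaffold protein gene, changed by -1.01 (adjusted p = 0.0118). Cadm1 changed by -0.83 (adjusted p = 0.00949). Cadm4, the Necl protein on the Schwann cell side, changed by -0.70 (adjusted p = 0.0379). That call was lost when control 1, control 2 or any dKO array was left out, with the Xist covariate or with the set of the largest spread (adjusted p from 0.0503 to 0.101). Nectin1 was the gene that rose, by 0.70 (adjusted p = 0.0128), and with its probe sets averaged the change was 0.24 and did not pass (adjusted p = 0.201). Epb41l3, which encodes the linker protein 4.1B, had a change of 0.49 and did not pass (adjusted p = 0.0766). It passed as higher without dKO 3, with probe sets averaged, the set of the largest spread, the intensity trend or array weights (adjusted p from 0.0107 to 0.0331).

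Among 7 tested genes of the node and paranode, 3 were called lower and 0 higher, with a median change of -0.54. The limma fit gave 0 of these genes higher at an unadjusted p under 0.05. Nfasc, which encodes the neurofascins of glial loops and nodes, fell from 9.63, 9.87 and 8.70 in control to 7.20, 5.72 and 6.57 in dKO (log2 change -2.90, SE 0.41, adjusted p = 0.00188). Its lowest dKO array was dKO 2, as for Ncmap. Nrcam changed by -1.76 (SE 0.18, adjusted p = 0.000555). The call of Ank2 (-0.54, adjusted p = 0.0494) was lost when any control array, dKO 1 or dKO 3 was left out (adjusted p at most 0.144), with the replicate block, the Xist covariate, robust fitting or no low-value limit, and the mean of its probe sets changed by -0.10. With the probe set of the largest spread the median of the list was -1.04.

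Junctions between turns of the same Schwann cell, which hold the paranodal loops and incisures together, included genes with large falls and genes that did not pass. Of 14 tested genes, 6 were called lower and 0 higher, with a median change of -0.40. The limma fit gave 1 of these genes higher at an unadjusted p under 0.05, and 1 was called higher without dKO 1. Cldn19, a claudin of these junctions, read 8.19, 5.80 and 6.29 on the dKO arrays against 10.63 to 10.95 in control (log2 change -4.06, SE 0.53, adjusted p = 0.00133). Cdh1, which encodes E-cadherin, read 7.75, 4.17 and 5.14 on the dKO arrays against 9.65 to 10.24 (log2 change -4.25, SE 0.77, adjusted p = 0.00580). Gjc3, which encodes a connexin, changed by -3.13 (SE 0.45). Marveld3 was under the low-value limit on all dKO arrays, and at least 12.0-fold lower when its dKO values were raised to that limit (adjusted p = 0.000175). It changed by -2.12 with its probe sets averaged. The catenin genes Ctnna1, Ctnnb1 and Ctnnd1, which are expressed in most cell types, changed by -0.30, -0.02 and -0.38 and did not pass, although Ctnnd1 passed with its probe sets averaged (-0.47, adjusted p = 0.0469) and Ctnna1 with the set of the largest spread (-0.81, adjusted p = 0.0434) or the intensity trend (adjusted p = 0.0373). With the probe set of the largest spread the median of the list was -0.76.

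**Figure D4:**
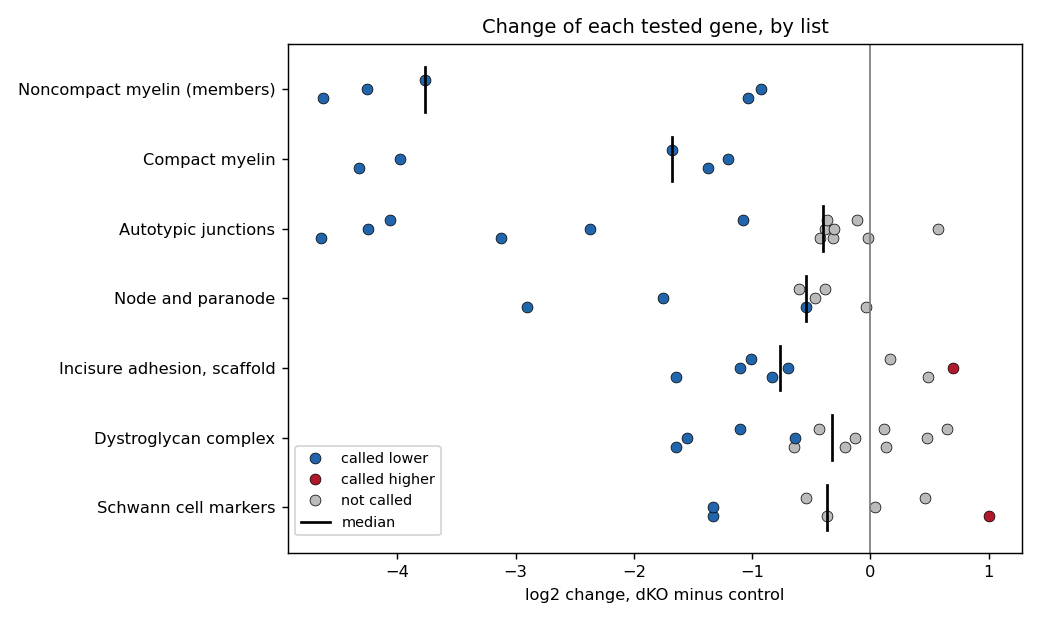
Log2 change, dKO minus control (x axis), of each tested gene in 7 lists (y axis). Points are genes, coloured by the call at an adjusted p under 0.05 in limma, and black lines are medians. All 5 members and all 5 compact myelin genes were called lower, while the other lists hold called and uncalled genes. Marveld3, the lowest point of the junction list, was under the low-value limit on all dKO arrays.

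Relatives of the members by sequence gave changes in both directions. Mag belongs to the Siglecs, receptors that bind sialic acid. Of 7 other Siglec genes 5 were tested, and 9.38% of all genes tested were called lower. Of the 5 Siglec genes 1 was called lower. It was Siglecf, at 4.99, 4.56 and 4.88 on the dKO arrays against 6.05 to 6.50 in control (log2 change -1.49, SE 0.18, adjusted p = 0.000981). Siglece, Siglec1, Cd33 and Siglech had changes of -0.33, -0.20, 0.12 and -0.07, none past the threshold (adjusted p from 0.311 to 0.793). Siglec1 and Cd33 changed sign under some alternatives. Ndrg4, a relative of Ndrg1 known from neurons and heart, rose from 9.26, 9.03 and 8.51 in control to 11.55, 11.54 and 11.15 in dKO (log2 change 2.48, SE 0.22, adjusted p = 0.000285). Its second probe set rose by 2.42. Ndrg2 changed by 0.51 (adjusted p = 0.0789) and Ndrg3 by -0.45 (adjusted p = 0.104), and neither passed, although Ndrg2 did with the intensity trend (adjusted p = 0.0407).

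Genes with the pattern most like each member were ranked by the Pearson correlation of log2 level over the 6 arrays. Since the groups form 2 clusters, r describes mostly the gap between them and the order within them. The nearest to Mag were Shtn1, Mme and Lss (r = 0.999 each), with changes of -2.25, -3.34 and -3.19. Nearest to Ncmap were Pllp (r = 0.9998), Hmgcs1 and Rnf128 (r = 0.999 each). Pllp read 7.93, 5.37 and 6.44 on dKO arrays 1 to 3, with its lowest value in dKO 2 as for Ncmap. Nearest to Drp2 were Hspa12a (r = 0.999), Kcna2 and Acot6 (r = 0.998 each). Nearest to Cnp were Spock1 (r = 0.999), Fnta and Arnt (r = 0.998 each), of which Arnt changed by -0.35 and was not called (adjusted p = 0.0840). Nearest to Ndrg1 were Sh3tc2, Wdfy2 and Tbxa2r (r = 0.998 each). Sh3tc2 is, like Ndrg1, a gene mutated in a demyelinating hereditary neuropathy. It fell from 8.78, 9.07 and 8.61 in control to 7.09, 6.52 and 6.85 in dKO (SE of the change 0.19, adjusted p = 0.000418). The ranking used the brightest sets, and other sets of Cnp and Ndrg1 order the dKO arrays differently. Sh3tc2 was lowest in dKO 2, which was the highest dKO array on some other Ndrg1 sets. The genes nearest to Cnp and Ndrg1 may thus depend on the probe set. Nearest to the mean of the 5 standardised members were Krt80, Nkain2 and Plxnb3 (r = 0.999 each), followed by Mlip and Lss (r = 0.998 each). Acot6 and Mlip changed by -1.37 and -2.50 on their brightest sets but by -0.77 and -0.86 with their probe sets averaged, and Hmgcs1 by -0.83 and -1.76.

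Of 10 factors known to drive myelin genes, 4 were called lower and 0 higher, with a median change of -0.58, or -0.32 without control 1. The limma fit gave 0 of them higher at an unadjusted p under 0.05. Egr2 read 12.68 ± 0.10 in control and 10.94 ± 0.56 in dKO, a change of -1.74 (SE 0.26, adjusted p = 0.00246). Pou3f2 and Pou3f1 changed by -1.72 and -1.34, and Pou3f1 by -0.81 with its probe sets averaged. The call of Tead1 (-0.82, adjusted p = 0.0450) was lost when any control array, dKO 2 or dKO 3 was left out, and also with the replicate block, the Xist covariate, array weights, the set of the largest spread or no low-value limit (adjusted p from 0.0511 to 0.123).

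The markers of the Schwann cell lineage were present. Counts of markers called stand beside 9.38% of all genes tested called lower and 12.6% called higher. The level given for a group of markers is the mean over its measured genes on 1 array, and single markers can lie outside that range. The mean log2 level of 7 of 7 lineage markers ran from 9.31 to 9.58 in control and from 9.05 to 9.33 in dKO. Their changes ran from -1.33 (Erbb3) to 1.004 (Ngfr), with 2 called lower and 1 higher. The falls of Mag, Ncmap and Drp2 lay beyond that range, whereas those of Cnp and Ndrg1 lay within it on their brightest sets. Both other sets of Cnp and 3 of the other 4 of Ndrg1 lay beyond it. That range rests on the brightest set of each marker, however. The other set of Erbb3 changed by -1.83, further than the Ndrg1 sets at -1.76 and -1.79. Markers of other nerve cells were higher in part. The level of 5 fibroblast markers ran from 11.35 to 11.64 in control and from 11.91 to 12.06 in dKO, with 3 called higher, or 1 without control 2 or dKO 2. The level of 4 perineurial markers ran from 6.54 to 7.28 and from 7.77 to 8.17, with 2 called higher, or 1 without control 2, dKO 1 or dKO 2. For 4 pericyte markers it ran from 8.70 to 8.73 and from 9.18 to 9.41, with 3 called higher. Alternatives that gave 2 included no low-value limit, probe sets averaged, median centring, array weights and the Xist covariate. Of these markers 1 changed by -0.36, with all dKO arrays under all control arrays, and was not called. For 6 macrophage markers the level ran from 7.39 to 7.55 and from 7.81 to 8.73, with 2 called higher. That count was 1 without control 1, and 0 without control 2, control 3 or dKO 2 or with the Xist covariate. For 5 endothelial markers it ran from 7.20 to 7.75 and from 7.82 to 8.34, with 0 called (2 at an unadjusted p under 0.05 in limma). With the replicate number as a block 2 of them were called higher, and with probe sets averaged 1. For 6 neuronal markers it ran from 6.71 to 6.96 and from 6.97 to 7.08, with 1 called in each direction. The part of these shifts in the changes of the members was not tested. Mag and Cnp are also genes of oligodendrocytes, the myelinating cells of the brain and spinal cord, and the defining oligodendrocyte markers Mog, Olig1 and Olig2 were under the low-value limit on all 6 arrays. The mean level over all 7 oligodendrocyte markers ran from 4.19 to 4.28 in control and from 4.01 to 4.24 in dKO. Of these markers 2 (Opalin and Mobp) were called lower, a count of 0 without control 2, control 3, dKO 2 or dKO 3, with the replicate block, the Xist covariate or probe sets averaged, and 1 without dKO 1. The mean level of 5 skeletal muscle markers ran from 4.08 to 4.54 in control and from 4.19 to 4.32 in dKO. For 3 adipocyte markers the mean ran from 3.60 to 3.94 and from 3.63 to 3.74.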

How the data were processed

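RNA of 6 sciatic nerve samples, 3 dKO and 3 control by their titles, was measured on 1 array each. The values as deposited run from 1.66 to 14.94 and were read as log2 expression of probe sets from that range. The submitters' processing notes list GCOS 1.2 and GCRMA and no settings. After sorting, values of equal rank differed between arrays by 0.01 or less, so the authors had equalised the distributions before deposit, which hides any shift common to all genes. No depth applies to arrays, and their number limits the precision (median SE of a change 0.17).

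Names came from the platform's annotation (34958 of 45101 with 1 symbol, 932 with several, the others not named here), and symbols were updated by gene ID through a RefSeq table of GRCm38.p6, in which 204 were not found. The brightest probe set stood for a gene, and a gene was tested if 3 or more arrays reached a log2 value of 4 (14550 of 18194). The fit used limma 3.58.1 (lmFit and eBayes, R 4.3.3), Benjamini-Hochberg adjustment and a threshold of 0.05, without covariates. Single probe sets were fitted the same way. The gene fit was also run on simulated data in which each gene had equal spread in both groups. Mag, Ncmap and Drp2 did not have equal spread here, so that run does not bear on them. Members, gene lists and motifs were chosen with earlier results of these data known, and the lists came from general knowledge. Besides the members, 56 genes were named by a rule (the targeted genes, up to 4 called genes of each list whose groups do not overlap, up to 2 where under 2 were called, the Siglec and Ndrg families, and the genes of most similar pattern). Another 13 were named after their values were seen (Cadm4, Epb41l3, Nectin1, Mal, Dtna, Sntb2, Ctnna1, Ctnnb1, Ctnnd1, Erbb3, Ngfr, Opalin and Mobp). Genes not named here were not analysed here.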

Additional observations from a re-analysis of the deposited data

How the results depend on the processing

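All 5 members stayed called lower under each of 17 alternatives. These were other low-value limits, other probe set rules, median centring, an intensity trend, robust fitting, array weights, the Xist covariate, the replicate number as a block, and each array left out. With an array left out the changes ran from -5.17 to -4.28 for Mag, -4.91 to -3.69 for Ncmap, -4.37 to -3.35 for Drp2, -1.13 to -0.96 for Cnp and -1.01 to -0.85 for Ndrg1. The highest adjusted p was 0.0186 (Ndrg1 without control 2). Over all genes tested 1365 were called lower and 1833 higher. With arrays centred on the median, 1640 were called lower and 1603 higher. With an array left out these counts ran from 891 (without control 2) to 1331 and from 1246 to 1585. With the replicate number as a block, 1056 were called lower and 1501 higher, and all 5 members were called. The numbers do not pair the samples (correlation of deviations 0.040, -0.12 and -0.24 for numbers 1 to 3). Among named genes, Ank2 changed sign with the probe set of the largest spread (0.13) and Siglec1 with probe sets averaged (0.094). Cd33 changed sign with array weights (-0.032) and ran from -0.19 to 0.30 with an array left out. Ctnnb1 changed sign with array weights (0.040) and the Xist covariate (0.019), and ran from -0.058 to 0.032 with an array left out. The causes were not tested.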

Other observations

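Ndrg1 is phosphorylated by the Sgk kinases and then by Gsk3, and its transcript is known to respond to low oxygen. Over all genes tested, 9.38% were called lower and 12.6% higher. Of 5 tested genes of the Sgk and Gsk3 kinases, 2 were called lower and 0 higher in dKO nerves, with 0 higher also at an unadjusted p under 0.05 in limma. With the probe set of the largest spread 1 was called higher. Sgk1 fell from 10.59, 11.09 and 11.38 on control arrays 1 to 3 to 9.64, 9.44 and 9.28 on dKO arrays 1 to 3 (log2 change -1.56, SE 0.22, adjusted p = 0.00171). Sgk3 fell from 9.55, 9.60 and 9.63 to 8.31, 8.19 and 8.32 (log2 change -1.32, SE 0.13, adjusted p = 0.000418), with all of its 3 probe sets called.

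Of 10 tested genes induced by low oxygen, 2 were called higher and 1 lower, with a median change of 0.39. Over all genes tested, 12.6% were called higher and 9.38% lower. At an unadjusted p under 0.05 limma gave 5 of the 10 genes higher and 1 lower. Pdk1, which encodes a kinase that restrains pyruvate oxidation, rose by 1.59 (SE 0.16, adjusted p = 0.000499). The angiogenic factor gene Vegfa rose by 0.63 (adjusted p = 0.0152), a call lost without control 3 (adjusted p = 0.0565) or with the replicate number as a block (adjusted p = 0.0528). Bnip3, which encodes a mitophagy receptor, fell by 1.32 (SE 0.18, adjusted p = 0.00163). The part of low oxygen in the change of Ndrg1 was not tested.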
